A study of Dugesia japonica with 18 samples.

Results

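In irradiated planarians (Dugesia japonica), 41 of 25566 gene models met a rule for a rise at day 7 after X-irradiation. They stood at least 2-fold higher at day 7 than at day 0. At days 1 and 5 their log2 changes against day 0 lay below 0.5, with a median of 0.35 at day 5. A further 222 gene models with the same minimum level had this rise at day 7 but not such low changes at days 1 and 5. The 41 were chosen from the measured values. Counts were expressed as CPM, a scaling of every library to the same total over its gene models, and the 3 libraries of a day were averaged. A change is the log2 ratio of a later day's mean to the day 0 mean, with 0.5 CPM added to both. A member had to reach 10 CPM on some day. Its change had to be below 0.5 at day 1 and at day 5, with no lower limit, and at least 1 at day 7. The levels at days 0, 1, 5 and 7 of the members are therefore a description, and only days 0.5 and 3 had no limit of their own.

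The series holds 18 libraries in 6 groups of 3 biological replicates. The groups are day 0, which the series' design text describes as not irradiated, and days 0.5, 1, 3, 5 and 7 after irradiation. All animals came from the clonal strain SSP, were about 5 mm long and starved, and were lysed whole. The treatment protocol gives 150 Roentgens of X-rays without an exception for day 0, and day 0.5 is not listed in the design text. How many animals made up a library is not stated. None of the libraries of days 0.5 to 7 is labelled as unirradiated, so irradiation and elapsed time cannot be told apart in any comparison with day 0. Messenger RNA was counted from its 3′ end (Lasy-Seq, in which samples are indexed at reverse transcription and pooled into a single library preparation).

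Planarians are flatworms whose dividing stem cells, the neoblasts, give rise to every other cell type. Ionizing radiation kills dividing cells first. Differentiated cells do not divide and persist for a time without replacement. RNA of whole animals measures the sum over all cell types, so more cells of a type and more RNA per cell cannot be told apart, nor can a gain in one transcript and a loss of the rest of the RNA. The files do not pair the gene model IDs with gene names, and no annotation was used here, so no role or cell type can be given for a member.

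The library totals were lower at the later days, on average, and lay between 4679195 and 6114135 counts at day 7, against 7760430 to 12605652 counts at day 0. The members had from 37 to 7335 counts in a day 7 library, and the lowest count of any member in any library was 17. All 41 passed the filter on low counts, which left 17129 gene models for testing.

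Few gene models with a rise at day 7 had this course. Of the 9146 gene models that reached 10 CPM on some day, 263 had a log2 change of at least 1 at day 7, and the 41 members were 15.6% of these. Of the other 222, 129 had already passed the limit at day 5 alone, 4 at day 1 alone and 89 at both days. The limits cut through a continuous range. The 3 members nearest the day 7 limit had changes of 1.01, 1.01 and 1.02, and the 3 gene models just outside had 1.00, 0.99 and 0.99. At day 5 the members nearest the limit had changes of 0.49, 0.49 and 0.48, and those just outside had 0.51, 0.52 and 0.52. At day 1 they had 0.46, 0.39 and 0.36 inside and 0.52, 0.61 and 0.63 outside. The highest daily means nearest the minimum were 10.6, 10.7 and 10.8 CPM inside and 9.56, 9.54 and 9.43 CPM outside.

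DjGI000588-001 had the largest change at day 7. Its level was 12.1, 12.1 and 11.2 CPM in the day 0 libraries, 11.8, 11.9 and 14.4 CPM at day 0.5, and 13.9, 12.7 and 11.4 CPM at day 1. It was 10.6, 11.5 and 16.2 CPM at day 3, 18.6, 12.6 and 16.6 CPM at day 5, and 26.4, 32.3 and 34.5 CPM at day 7. The day 7 libraries all lay above the other 15, and the libraries of days 0 to 3 overlapped. It averaged 31.1 ± 4.19 CPM in the day 7 libraries, against 11.8 ± 0.49 CPM in those of day 0 (SD, n = 3 each). For day 7 against day 0, the quasi-likelihood test of edgeR estimated the log2 change at 1.31 ± 0.15 (SE), with an adjusted p of 5.82e-08. This contrast chose the gene model, so the p is no separate evidence. Between day 3 and day 0.5, the contrast without a limit, its log2 change was -0.04 ± 0.16 (SE; edgeR adjusted p = 0.923).

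DjGI014789-001 had the highest level of all members at day 7. It stood at 446, 594 and 589 CPM in the day 0 libraries, 299, 706 and 629 CPM at day 0.5, and 753, 590 and 742 CPM at day 1. At day 3 it was 566, 806 and 627 CPM, at day 5 it was 771, 827 and 398 CPM, and at day 7 it was 1345, 1094 and 1158 CPM. Here too the day 7 libraries lay above the other 15, but the libraries of days 0.5 and 5 differed among themselves by more than 2-fold, with low values in day 0.5 replicate 1 and day 5 replicate 3. Its mean was 1199 ± 130 CPM over the day 7 libraries, against 543 ± 83.9 CPM over those of day 0 (SD, n = 3 each). The edgeR log2 change of day 7 against day 0 was 1.07 ± 0.23 (SE), with an adjusted p of 0.00038, again in the contrast that chose it. Day 3 against day 0.5 gave 0.24 ± 0.23 (SE; edgeR adjusted p = 0.557).

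**Figure D1:**
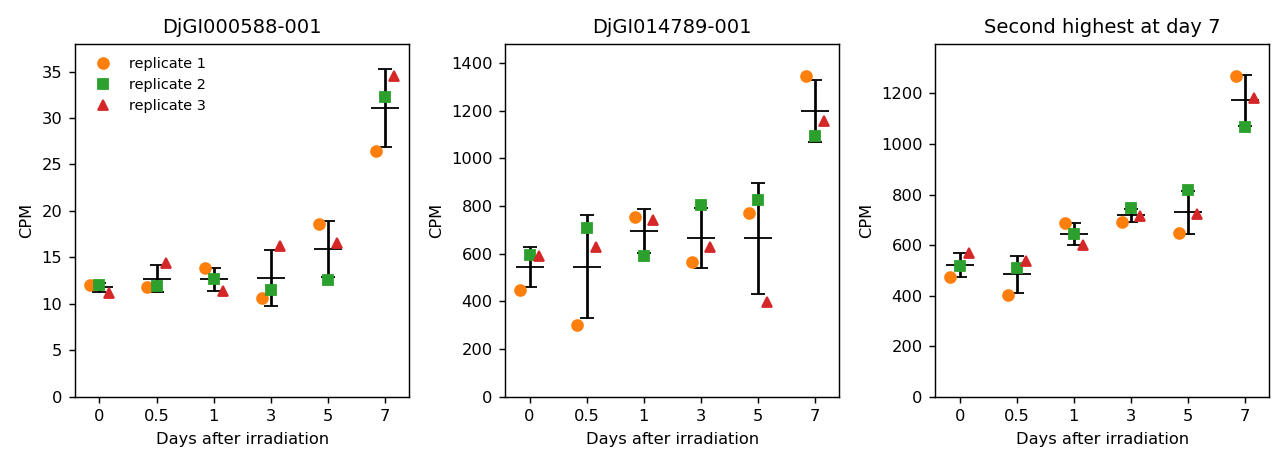
CPM of DjGI000588-001, DjGI014789-001 and the member with the second highest level at day 7 in each library (symbols by replicate), with the mean and SD of each day (bars), against the day of sampling, with days spaced evenly. In all 3 the day 7 libraries lie above the other 15, and the replicates of DjGI014789-001 spread from 299 to 706 CPM at day 0.5 and from 398 to 827 CPM at day 5.

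The members covered a wide range of levels. Day 7 means ran from 10.6 to 1199 CPM with a median of 29.2 CPM, and day 0 means ran from 4.29 to 543 CPM with a median of 12.6 CPM. Together the 41 held 1.01 ± 0.075% of the counts at day 7, against 0.464 ± 0.057% at day 0 (SD, n = 3 each). They were divided into 14 members with a mean of at least 50 CPM over all 18 libraries and 27 scarcer ones with a lower mean, a division made after the values were seen. The 14 abundant members held 0.951 ± 0.083% of the counts at day 7, against 0.437 ± 0.055% at day 0, and the 27 scarce members held 0.059 ± 0.013% at day 7, against 0.026 ± 0.002% at day 0 (SD, n = 3 each).

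Changes at day 7 had to reach 1 in both classes, so nothing is read from their similar size. They ran from 1.02 to 1.2 with a median of 1.09 in the abundant members, and from 1.01 to 1.36 with a median of 1.12 in the scarce ones. The median was 1.13 over the 222 other gene models with a rise at day 7 and 0.10 over all 17129 gene models tested, on the same scale. The edgeR test called all 41 higher at day 7 than at day 0, against 18.4% of all gene models tested. The day 7 libraries all lay above the day 0 libraries in 40 of the 41, against 24.6% of all gene models. The exception was a member with 7.88, 14.96 and 17.01 CPM at day 7, against 5.22, 5.08 and 8.25 CPM at day 0. The rule used this contrast, and nothing is read from these counts.

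**Figure D2:**
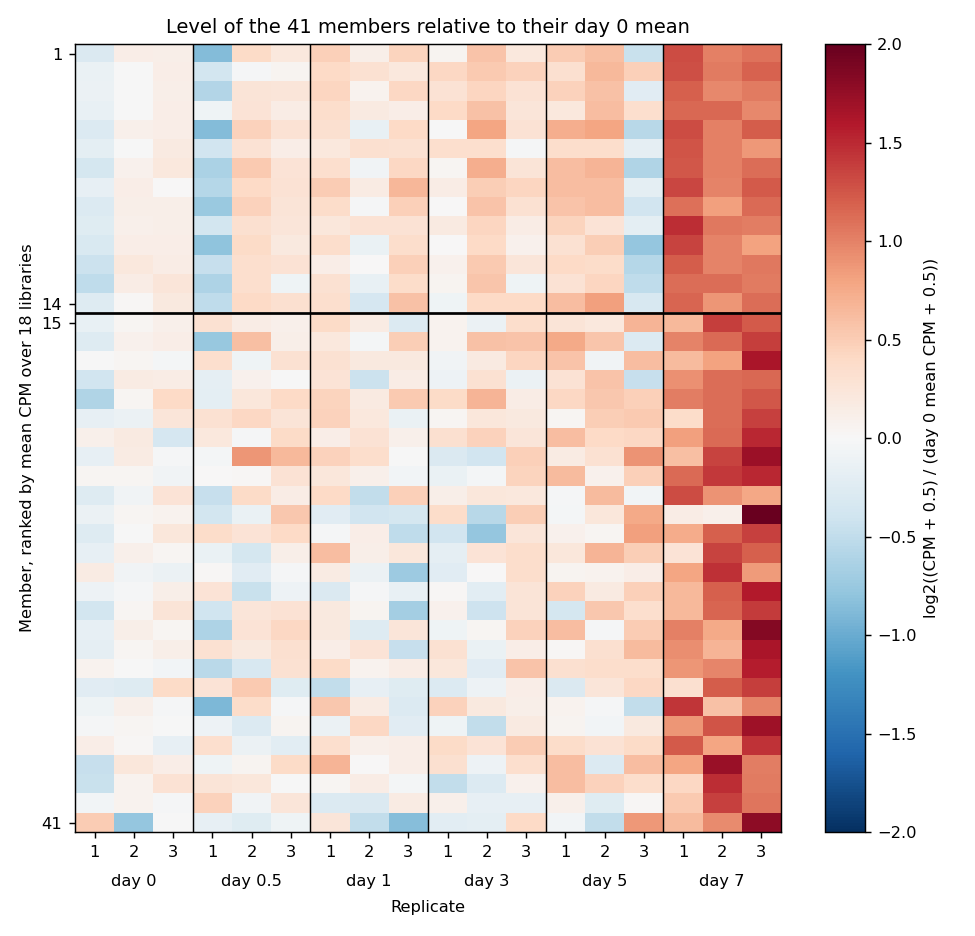
Log2 ratio of each library's CPM to the day 0 mean (0.5 CPM added to both) for the 41 members, ranked from the highest to the lowest mean level. Columns are the 18 libraries by day and replicate, and the horizontal line parts the 14 members with a mean of at least 50 CPM from the 27 below. In the upper block day 0.5 replicate 1 is the lowest library of its day in all 14 members, and day 5 replicate 3 the lowest of its day in 12. In the lower block day 7 replicate 3 is the highest library of its day in 19 of 27.

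Days 0.5 and 3 were examined because the rule set no change for them. In day 3 against day 0.5, 1 of the 41 members was called higher, against 4.36% of all gene models tested, and none was called lower, against 7.57%. At an unadjusted p below 0.05, 2 members were higher and 2 lower. DESeq2 called 1 member higher and none lower, with 1931 called in either direction over all gene models. The median log2 change of the members was 0.11, with a range of -0.65 to 0.525, and the median of all gene models was 0.00. The day 3 libraries lay all above the day 0.5 libraries in 2 members and all below in 2, against 16.6% and 13.4% of all gene models. With day 0.5 replicate 1 left out, 1 member was called higher and 1 lower, and with day 3 replicate 3 left out, 1 was called higher and 2 lower. Over all gene models, 1704 and 1434 were then called in either direction, against 2043 with all 18 libraries.

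The member called in this contrast had the second highest level at day 7. Its levels were 692, 746 and 714 CPM at day 3, against 402, 511 and 539 CPM at day 0.5. Its day 3 libraries lay above its day 0.5 libraries by 0.525 ± 0.115 on the log2 scale (SE; edgeR adjusted p = 0.00243). Under the 16 alternatives to this fit the change was between 0.39 and 0.65, and the call was kept in all 16. This member had 473, 517 and 569 CPM at day 0, 688, 645 and 599 CPM at day 1, 649, 818 and 722 CPM at day 5, and 1269, 1068 and 1181 CPM at day 7. From day 1 onward its mean was higher on each sampling day than on the one before.

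Against day 0, whose libraries are also the base of every change in the rule, no member was called at day 0.5, against 2.59% of all gene models called higher and 7.44% lower. At an unadjusted p below 0.05, 1 member was higher, and DESeq2 called none, with 1611 called over all gene models. Without day 0.5 replicate 1, edgeR called 1 member, with 1615 called over all gene models, against 1718 with all libraries. At day 3, 2 members were called higher and none lower, against 13.3% and 18.5% of all gene models. These were the members with the second highest and the fourth highest level at day 7, with log2 changes of 0.44 ± 0.12 and 0.39 ± 0.13 (SE; edgeR adjusted p = 0.0038 and 0.0173). The count at day 3 was 1 when replicate 1 or 2 of day 0, or replicate 1 or 2 of day 3, was left out. It was 6 with only the 6 libraries compared. Over all gene models, 4503 to 4724 were called with such a library left out and 5805 with only the 6 libraries, against 5452 with all libraries. Low shares at days 0.5 and 3 cannot be read apart from the limits set on the days around them.

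Most members had day means above that of day 0 before day 7, although few passed the test. On the CPM scale, 31 of 41 had a change above 0 at day 0.5, 34 at day 3 and 39 at day 5, with medians of 0.09, 0.20 and 0.35. Over all gene models tested the medians were -0.02, 0.03 and 0.09, and 46.9%, 52.5% and 56.7% had a change above 0. Among those tested that reached 10 CPM, the shares above 0 were 52.2%, 58.9% and 60.3%. Among the 222 other gene models with a rise at day 7 they were 93.7%, 98.6% and 100%. The day 0 base of these changes and the day 5 values were used by the rule, so the counts are a description. At day 1 edgeR called no member, against 7.17% of all gene models called higher and 12.8% lower. DESeq2 called none either, and 3 members were higher at an unadjusted p below 0.05. At day 5, 2 were called higher and none lower, against 14.8% and 20.9% of all gene models. The limits of the rule at days 1 and 5 held back calls of higher on those days, so nothing is read from these counts. As most day means before day 7 lay above that of day 0, the working description of a rise at day 7 alone holds only for the limits of the rule. The 222 other gene models with a rise at day 7 had medians of 0.27 at day 0.5 and 0.61 at day 3, and 159 of them had a change of at least 0.5 at day 3, against none of the 41 members. This difference was not tested, since the limits at days 1 and 5 parted the sets.

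In the last step, from day 5 to day 7, edgeR called 25 of the 41 members higher, against 0.981% of all gene models tested, and none lower, against 1.62%. Of the 168 gene models called higher in this step, 25 were members, and of the 53 that were at least 2-fold higher, 5 were members. The members' log2 changes in this step ran from 0.56 to 1.30 with a median of 0.83. The day 7 libraries lay above all day 5 libraries in 32 of the 41, against 7.19% of all gene models, and above all other 15 libraries in 32, against 3.32%. All 14 abundant members were among these 32, and 18 of the 27 scarce ones. The limits at days 5 and 7 fix this step, and nothing is read from its counts.

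The abundant members shared an order of the libraries within a day. Their summed level was 3752, 4561 and 4805 CPM in day 0 replicates 1, 2 and 3, then 3027, 5477 and 5029 CPM at day 0.5 and 5644, 4727 and 5647 CPM at day 1. It was 5041, 6412 and 5226 CPM at day 3, 6056, 6629 and 3937 CPM at day 5, and 10449, 8856 and 9232 CPM at day 7. Day 5 replicate 3 stood as low as the day 0 libraries, and day 0.5 replicate 1 stood below all of them, whereas the day 7 libraries stood well above the other 15.

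Each of the 14 abundant members had its lowest day 0.5 value in replicate 1, as did 26.3% of the 2363 gene models tested at this level. In 12 of the 14 the lowest day 5 value was in replicate 3, against 31.9% at this level. At day 0 replicate 1 was lowest in 14 of 14, against 28.1%, and at day 7 replicate 1 was highest in 12 of 14, against 25.7%. These orders are a description, since members share their libraries. Day 0.5 replicate 1 had 7133552 counts, the lowest total of its day, whereas day 5 replicate 3 had 7121976, the highest of its day. Their TMM scaling factors were 0.979 and 1.04, and the factors of all libraries, these included, ran from 0.937 to 1.13. The part of depth or scaling in the low values was not tested.

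**Figure D3:**
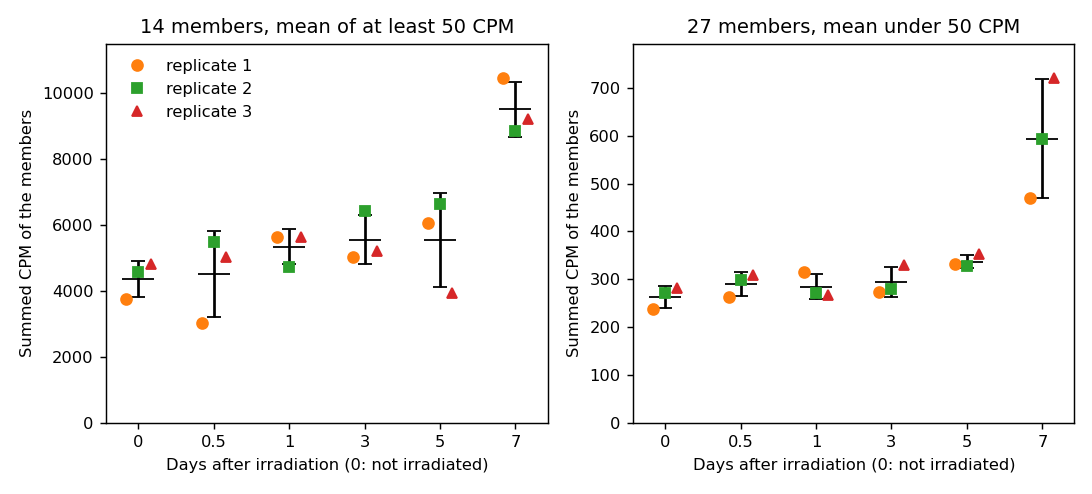
Summed CPM of the 14 members with a mean of at least 50 CPM (left) and of the 27 others (right) in each library, with symbols by replicate and the mean and SD of each day, against the day of sampling. The left sums are as low as 3027 CPM in day 0.5 replicate 1 and 3937 CPM in day 5 replicate 3, and the right sums run from 469 to 720 CPM over the day 7 libraries.

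The spread between replicates of the abundant members was wide for genes of their level, as a description. In the abundant members the SD of the 3 libraries had a median of 15.1%, 31.5%, 17%, 15.1%, 32.7% and 10.2% of the mean at days 0, 0.5, 1, 3, 5 and 7. In all gene models tested at this level the medians for these days were 5.8%, 7.2%, 5%, 5.9%, 5.8% and 8.2%. The scarce members had a median spread of 11.5%, 19.2%, 20%, 18.6%, 21.4% and 29.9% on the same days. In all gene models tested below 50 CPM the medians were 14.4%, 15.7%, 14.3%, 15.4%, 17% and 22%. The abundant members were closest to gene models of their level at day 7. The rule used the values of days 0, 1, 5 and 7, so the spreads on these days are not separate from the choice of members. Its limit of 0.5 at day 5 was applied to a mean over libraries that differed. A single low library at day 5 helped a gene model to stay below that limit. The part of this choice in the spread was not tested. The median change of the abundant members was 0.45 in day 5 replicate 1, 0.61 in replicate 2 and -0.35 in replicate 3.

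**Figure D4:**
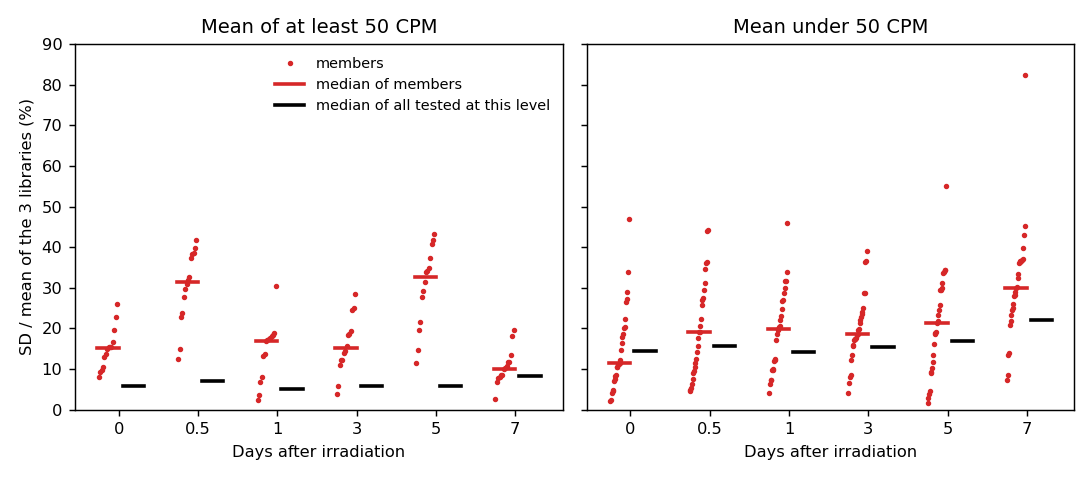
SD of the 3 libraries of a day as a percentage of their mean, for each member (points) and as the median of the members (red lines) and of all gene models tested at the same level (black lines), by day. For members with a mean of at least 50 CPM (left) the median is 31.5% at day 0.5 and 32.7% at day 5. For all gene models tested at this level it is 7.2% and 5.8%. The rule used the day 5 values.

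Other abundant gene models shared the order with replicate 1 lowest at day 0.5 and replicate 3 lowest at day 5. It was found in 12 of the 14 abundant members and in 280 of the 2349 other gene models at this level, or 11.9%. This order together with a spread of at least 20% at both days was found in 11 of the 14 abundant members. It was also found in 39 of the 2349 other gene models at this level, or 1.66%. The median change at day 7 was 1.09 in those 11 members, which the rule fixed, and 0.48 in the 39 others, of which 2 had a change of at least 1. For all 2349, whatever their order or spread, the median change at day 7 was 0.15. The order and the spread limit were chosen after the values of the abundant members were seen, so nothing is read from the members' shares. A low library at day 5 also helped a member to stay below the day 5 limit. Whether this order goes with the change at day 7 was not tested.

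The scarce members differed most among the day 7 libraries. Their summed level was 469, 594 and 720 CPM in day 7 replicates 1, 2 and 3, against 238, 271 and 282 CPM at day 0. On days 0.5, 1, 3 and 5 the sums lay between 262 and 353 CPM, so that all day 7 libraries stood above the rest. Replicate 3 was the highest day 7 library in 19 of the 27 and replicate 1 the lowest in 21, against 52.2% and 44.6% of all gene models tested below 50 CPM. The median change was 0.79 in replicate 1, 1.13 in replicate 2 and 1.39 in replicate 3, and 6, 18 and 24 of the 27 had a change of at least 1 there. The widest case had 11.6, 11.1 and 42.2 CPM at day 7, against 9.49, 10.6 and 10.8 CPM at day 0. In the abundant members the order was another one, with medians of 1.25, 1.01 and 1.07 in replicates 1, 2 and 3. Day 7 replicate 3 had the highest TMM factor of all libraries, 1.13, and the part of scaling in its values was not tested.

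Membership depended on single libraries. Without day 5 replicate 3, 31 of the 41 members still met the rule, and 7 of the 14 abundant members passed the day 5 limit, with a median change of 0.51 in place of 0.33. Without day 0 replicate 1, 23 of the 41 remained, and 16 no longer reached the day 7 limit. Without day 7 replicate 3, 27 remained, and 13 of the 27 scarce members fell short at day 7. When day 7 replicate 1 was left out, 85 gene models met the rule, 36 of them members, and 64 did so when day 7 replicate 2 was left out, 33 of them members. In all, 4 members met the rule whichever of the 18 libraries was left out, 2 of them abundant and 2 scarce. Neither DjGI000588-001 nor DjGI014789-001 is among these 4. With day 5 replicate 2 left out, the day 5 change of DjGI000588-001 was 0.56, and with day 5 replicate 3 left out that of DjGI014789-001 was also 0.56, both over the limit.

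**Figure D5:**
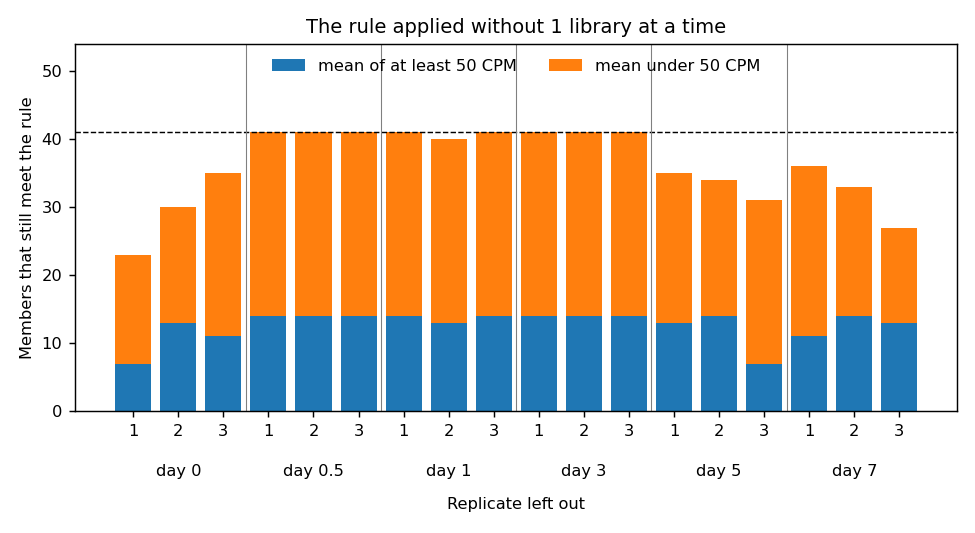
Number of the 41 members that still met the rule when 1 library was left out (horizontal axis, by day and replicate), divided by mean level. The dashed line marks 41, and the lowest bars stand at 23 (day 0 replicate 1 left out), 27 (day 7 replicate 3) and 30 (day 0 replicate 2).

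The size of the day 7 change moved little with the scaling. Its median over the 41 members was 1.12, 1.03, 1.04, 1.12 and 1.05 with library totals, TMM, RLE, upper-quartile and ERCC scaling. A change of at least 1 by the rule fixed its sign under each. The median over all gene models tested at day 7 was 0.10, 0.02, 0.03, 0.11 and 0.04 with the same scalings. The rule took in 34 gene models with TMM and 29 with ERCC scaling, of which 26 and 29 were members. The ERCC scaling rests on 190 to 487 counts per library. The lower day 7 depth was examined by thinning every library to 4679195 counts, after which the rule took in 39 gene models, 29 of them members.

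The IDs are a further feature that the rule did not use. Of the 41 members, 7 share the first number of their ID with another gene model, or 17.1%, against 35.6% of all gene models tested, whatever their level. None of the 14 abundant members does. What a shared first number means is not stated. If such IDs are near-identical copies, their reads could be divided between them, which would make the levels of these 7 uncertain. This was not tested. All 41 members have different first numbers.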

How the data were processed

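Estimated counts per gene model were deposited without normalization, in a column for each library. Days in a further table of library totals were the same as in the sample titles for all 18. Per the submitters' processing notes, the tools were Salmon, BWA 0.7.17-r1188 and fastp 0.21.0; their roles and the source of the gene models are not stated. The 92 ERCC control rows, with 190 to 487 counts per library, were left out of library totals and tests.

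CPM were computed from the counts as deposited. For tests, counts were rounded (38 values were not whole, with no tolerance), filtered by filterByExpr of edgeR 4.0.16 (R 4.3.3) and scaled by TMM. The quasi-likelihood F-test used a model of 6 day means over the 18 libraries. All p-values are two-sided and were adjusted by Benjamini-Hochberg over the 17129 gene models, with a threshold of 0.05. A standard error is the log2 change divided by the square root of F, an approximation. The fit was also run on counts simulated from its own estimates, with changes planted in day 3 against day 0.5 alone. Each gene model was drawn apart from the others, so the simulation cannot test an effect that gene models share within a library. The series calls the replicates biological. Their sources are not described further, so p-values set a difference between day means against the spread between these samples only.

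The members, contrasts and alternatives were chosen with earlier results of these data known. DESeq2 1.42.0, other scalings and filters, thinning, the replicate block and leaving out libraries were the alternatives. As the files do not pair IDs with names, at most 2 IDs that rose and 2 that fell were to be printed: the members with the largest change and with the highest level at day 7, without overlap with day 0, and the members called lower by most at day 3. None was called lower. No gene list or marker list could be matched or tested. Members singled out by rank or spread were chosen after their values were seen.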

Additional observations from a re-analysis of the deposited data

Results flagged for a closer look

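The change of 1 member differed between day 3 and day 0.5 by a test of the difference itself. It had the second highest level at day 7, and its log2 change of day 3 against day 0.5 was 0.525 (edgeR adjusted p = 0.00243). Its 3 day 3 libraries lay above all 3 day 0.5 libraries. Of all gene models tested, 4.36% were called higher in this contrast and 16.6% had this separation, so 1 call among 41 members is no result about the set. Between day 7 and day 5, 25 members were called higher in the edgeR test, a step that the choice of members fixed. Of all gene models tested, 0.981% were called higher in this step and 1.62% lower. No test for a single library that stands apart was run within the groups of 3.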

How the results depend on the processing

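The number of gene models by the rule was 72 with a minimum of 5 CPM, 25 with 20 CPM and 12 with a limit of 0.25 at days 1 and 5. Under the 10 other settings that kept all libraries it was 29 to 50. With the median of the 3 libraries in place of the mean it was 36, of which 19 were members. With 1 library left out it was 32 to 85, and 85 and 64 came with day 7 replicates 1 and 2 left out.

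With no filter on low counts, edgeR called 3 members in day 3 against day 0.5 (1 higher, 2 lower), 1 in day 0.5 against day 0 and 38 in day 7 against day 5, a step that the rule fixed. Over all gene models it then called 2069, 1742 and 628, against 2043, 1718 and 445 with the filter. With only the 6 libraries compared, 1 was called in day 0.5 against day 0 and 6 in day 3 against day 0, with 1863 and 5805 called over all gene models. Without 1 library, 1 to 3 were called in day 3 against day 0.5, 0 to 1 in day 0.5 against day 0, 1 to 3 in day 3 against day 0, 39 to 41 in day 7 against day 0 and 17 to 25 in day 7 against day 5. Over all gene models, the same fits called 1374 to 1704, 876 to 1615, 4503 to 4724, 6063 to 6656 and 272 to 443. The rule used the days of the last 2 comparisons, so these counts are no sign of stability. The count of 3 in day 3 against day 0.5 came with day 3 replicate 3 left out, and the count of 1 in day 0.5 against day 0 with day 0.5 replicate 1 left out. The cause was not tested.

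With the replicate block, 2 members were called in day 3 against day 0.5 (1 higher, 1 lower), against 1 without it. Over all gene models, 2044 were called with the block and 2043 without it. No other count of members called moved by over 1.5 times. Deviations of libraries with the same number correlated at -0.04 to 0.12, and a library was closest to its own number in 15 of 30 cases, so the numbers were not taken to pair samples.

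Depth limits the scarce members, with counts down to 17 in a library.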
